A study of Mus musculus with 16 samples.

Results

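The 10 genes described here encode the transforming growth factor beta (TGF-beta) ligands (Tgfb1, Tgfb2 and Tgfb3), their receptors (Tgfbr1, Tgfbr2 and Tgfbr3) and the latent TGF-beta binding proteins (Ltbp1, Ltbp2, Ltbp3 and Ltbp4). They were taken by symbol from the 49568 genes of the count table, each symbol matched 1 gene, and all 10 passed the filter on low counts in every comparison. RNA-seq was performed on flexor tendon of male mice aged 9 to 11 weeks from the inbred strains C57BL/6J (C57) and MRL/MpJ (MRL), the latter studied for its healing capacity. In each strain 4 libraries came from uninjured tendon and 4 from tendon collected 7 days after the deep digital flexor tendon of the third hind digit had been cut through 50% of its width (7 dpi), so that 16 libraries formed 4 groups. The operated mice were anesthetized with ketamine and xylazine and received buprenorphine for pain afterwards, so these drugs and the injury cannot be told apart. The sources used here name no transgene, 1 time point after injury was sequenced, and peritendinous and sheath tissue was left on the tendon.

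TGF-beta is secreted in a latent form, folded with its own propeptide, which a latent TGF-beta binding protein (LTBP) can tether to fibrillin-rich matrix until integrins or proteases release the active ligand. Released ligand binds the type II receptor, which recruits and phosphorylates the type I receptor, and the type I receptor phosphorylates SMAD2 and SMAD3. The pathway drives tendon progenitor recruitment in the embryo and is a well known inducer of scar matrix and adhesions in the healing flexor tendon.

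Before the results, 3 libraries stood apart. Epidermis markers took 7.68% of the counts of C57 uninjured replicate 4 against at most 0.100% in the other 15 libraries, and that library had the lowest level of its group for all 10 genes. Skeletal muscle markers took 6.37% of the counts of BI-181, an injured C57 library, and 0.214% of BI-183. MRL uninjured replicate 4 had the highest Tgfb1, Tgfbr3 and Ltbp2 and the lowest Tgfb2, Tgfb3, Tgfbr1, Ltbp1 and Ltbp4 of its group. Total counts ranged from 12552424 to 23741648 per library. The 4 injured MRL libraries, at 18524170 to 23741648, were all deeper than the libraries of the other groups (at most 17832908). Depth and this group therefore cannot be told apart. The tenocyte markers, at 1.48% to 7.01% of counts, were detected in every library with none at 0. In bulk tissue, a change in the number of cells of a type and a change in RNA per cell cannot be told apart.

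The promoters of Tgfb1, Ltbp1, Ltbp2 and Ltbp4 are shown first. Tgfb1, Ltbp1 and Ltbp4 passed the injury test below in MRL, and Ltbp2, which did not, had the widest range of levels. Tgfb3 and Tgfbr3 also passed it, but no promoter of theirs was read here. RefSeq (GRCm38.p6) gave 12 start sites for 8 of the 10 genes. Capitals in the 250 bases before the start mark GGGCGG (a GC box), CAGACA (a SMAD-type motif) and TGANTCA (AP-1), each searched on both strands.
Tgfb1, chr7:25686752-25687001, + strand: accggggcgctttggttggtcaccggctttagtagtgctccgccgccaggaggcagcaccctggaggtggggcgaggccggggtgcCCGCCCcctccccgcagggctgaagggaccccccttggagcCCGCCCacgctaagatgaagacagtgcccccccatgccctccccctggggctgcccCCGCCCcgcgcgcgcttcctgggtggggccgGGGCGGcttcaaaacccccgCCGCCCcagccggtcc
Ltbp1, chr17:75178531-75178780, + strand: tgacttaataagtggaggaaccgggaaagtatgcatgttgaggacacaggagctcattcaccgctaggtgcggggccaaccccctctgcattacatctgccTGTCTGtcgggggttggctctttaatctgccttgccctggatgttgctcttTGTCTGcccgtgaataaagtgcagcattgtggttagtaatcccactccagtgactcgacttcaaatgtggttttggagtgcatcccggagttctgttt
Ltbp2, chr12:84876492-84876741, - strand: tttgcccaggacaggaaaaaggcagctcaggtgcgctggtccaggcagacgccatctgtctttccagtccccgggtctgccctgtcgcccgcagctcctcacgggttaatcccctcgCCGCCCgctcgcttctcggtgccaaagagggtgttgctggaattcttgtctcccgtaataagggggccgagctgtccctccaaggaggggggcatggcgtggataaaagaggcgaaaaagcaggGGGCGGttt
Ltbp4, chr7:27337613-27337862, - strand: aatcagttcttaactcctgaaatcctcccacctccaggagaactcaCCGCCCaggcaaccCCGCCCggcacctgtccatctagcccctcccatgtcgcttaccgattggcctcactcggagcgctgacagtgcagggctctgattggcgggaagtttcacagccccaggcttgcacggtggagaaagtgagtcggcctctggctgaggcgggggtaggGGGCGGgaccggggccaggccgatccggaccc
The Tgfb1 promoter held 5 GC boxes and no SMAD-type or AP-1 match, and its GC content was 75.2%. The Ltbp2 window held 2 GC boxes. Of the 3 Ltbp4 windows, the one shown held 3 GC boxes and the other two, which overlap at chr7:27333649-27333898 and chr7:27333664-27333913, held 5 and 7. The Ltbp1 start shown held 2 SMAD-type matches and no GC box, whereas the upstream Ltbp1 start at chr17:75005279-75005528 held no match to any of these motifs. Of all 32851 promoter windows of this length, 32.7% held a GC box, 17.1% the SMAD-type motif and 6.75% the AP-1 motif. Among the 12 windows of the family, 6 held a GC box, 3 the SMAD-type motif and 0 the AP-1 motif. These are matches of letters and show neither binding nor activity.

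The family was not expressed evenly. Levels between genes are compared as CPM (the count scaled to a fixed library total) per kilobase of exon (the union of all annotated exons), as mean ± SD over 4 libraries. In uninjured MRL tendon Tgfb3 was highest at 78.9 ± 8.15, followed by Ltbp4 at 64.2 ± 10.8 and Tgfbr3 at 51.4 ± 10.7, and the ranges of these neighbours overlapped. Ltbp3 came next at 27.7 ± 3.71 with no overlap with either neighbour, then Tgfbr2 at 15.5 ± 1.58, Tgfb2 at 11.4 ± 5.26 and Tgfbr1 at 11.1 ± 0.501, whose ranges overlapped in turn. Tgfb1 at 6.79 ± 1.56 lay below Tgfbr1, and Ltbp1 at 4.65 ± 0.423 below Tgfb1, both without overlap, and Ltbp2 was lowest at 1.65 ± 2.72. Thus 4 of the 9 neighbouring pairs were separate, and 7 of 9 without replicate 4 of this group.

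In uninjured C57 tendon the same 3 genes led, with Ltbp4 at 56.9 ± 21.9, Tgfb3 at 46.5 ± 15.4 and Tgfbr3 at 42.0 ± 17.5 CPM per kilobase. Below them came Ltbp3 at 23.6 ± 6.23, Tgfbr2 at 13.9 ± 4.69, Tgfbr1 at 11.4 ± 5.03, Tgfb1 at 7.93 ± 3.58, Tgfb2 at 7.62 ± 2.45, Ltbp1 at 4.31 ± 0.823 and Ltbp2 at 2.96 ± 2.09, and 0 of the 9 neighbouring pairs were separate. Without replicate 4 the order was the same and 6 of the 9 pairs were separate, with Ltbp4 (67.8 ± 3.70, n = 3) above Tgfb3 (53.8 ± 5.94), Tgfbr3 above Ltbp3, Ltbp3 above Tgfbr2, Tgfbr2 above Tgfbr1, Tgfbr1 above Tgfb1 and Tgfb2 above Ltbp1. After injury the C57 order ran from Ltbp4 at 42.6 ± 18.4 and Tgfb3 at 39.2 ± 8.21, the latter separate from Tgfbr3 at 27.4 ± 4.32, through Ltbp3 at 26.3 ± 4.80, Tgfbr2 at 24.8 ± 4.72 and Ltbp2 at 16.5 ± 5.20 down to Tgfbr1 at 8.42 ± 3.31. In injured MRL tendon Tgfb3 at 36.2 ± 15.0 still led, Ltbp2 at 26.7 ± 15.8 was second, Ltbp4 at 12.8 ± 9.05 was eighth, and 0 of the 9 neighbouring pairs were separate.

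**Figure D1:**
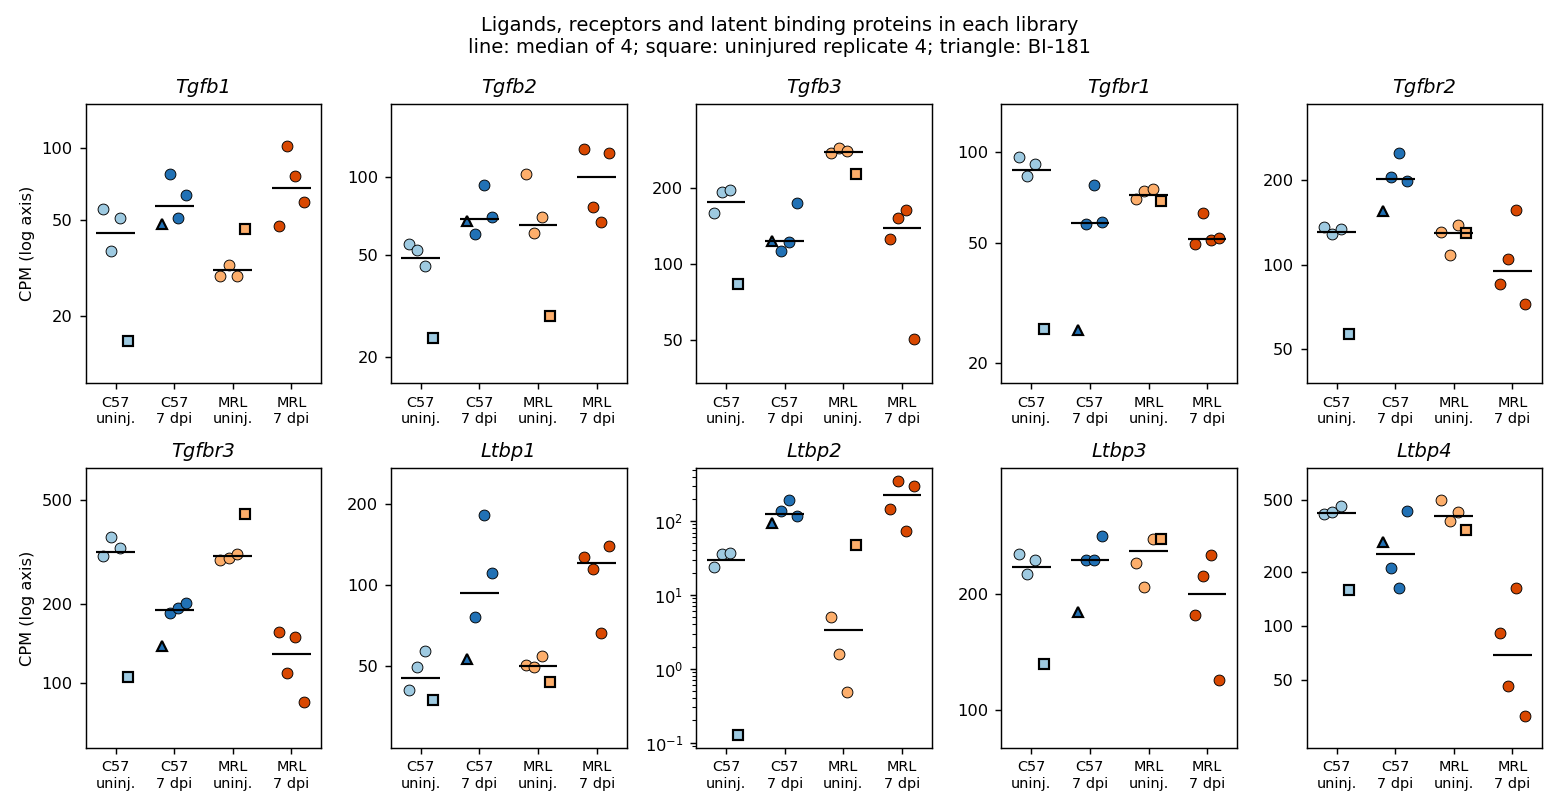
Level of each gene in every library, in CPM on a log axis that differs between panels, for uninjured and 7 dpi tendon of both strains. Points are libraries and lines are medians of 4, squares mark uninjured replicate 4 of each strain and the triangle marks BI-181. C57 uninjured replicate 4 lies lowest of its group in all 10 panels, and the MRL groups are separate for 7 genes.

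Injury was then compared with the uninjured state within each strain. A gene was called when its adjusted p (edgeR quasi-likelihood test with Benjamini-Hochberg adjustment over all genes tested) was under 0.05 and its absolute log2 fold change over 1. In MRL tendon 5 of the 10 genes were called, against 7.41% of the 14274 genes tested, with 2 higher (Tgfb1 and Ltbp1, against 5.25%) and 3 lower (Tgfb3, Tgfbr3 and Ltbp4, against 2.15%). At an unadjusted p under 0.05 there were 7 of the 10 in MRL (28.3% of all genes), DESeq2 called 6 (10.7%) and limma voom 5 (8.18%). In C57 tendon 0 of the 10 were called by edgeR, against 1.07% of 14424 genes, whereas 4 of the 10 had an unadjusted p under 0.05 (15.3%), DESeq2 called 1 (Ltbp1, against 5.51%) and limma voom 1 (Ltbp2, against 7.27%). The CPM ranges of the MRL groups did not overlap for 7 of the 10 genes, against 22.9% of all genes, with 3 higher (13.5%) and 4 lower (9.44%). Those of the C57 groups did not overlap for 3, all higher (7.42%), against 11.6% in either direction. Without C57 uninjured replicate 4 they did not overlap for 5, against 22% of all genes, with 3 higher (11.6%) and 2 lower (Tgfbr1 and Tgfbr3, against 10.4%). Without MRL uninjured replicate 4 the MRL count was again 7, against 29.3%, with 3 higher (16%) and 4 lower (13.3%). The median log2 difference was 0.56 for the ligands, -0.49 for the receptors and 0.62 for the LTBPs in C57, and 0.60, -0.42 and 0.40 in MRL, beside -0.05 and -0.03 over all genes. Values after ± are SDs for CPM and standard errors (SE) for log2 fold changes. The comparisons between strains reuse these groups, so the comparisons are not independent.

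**Figure D2:**
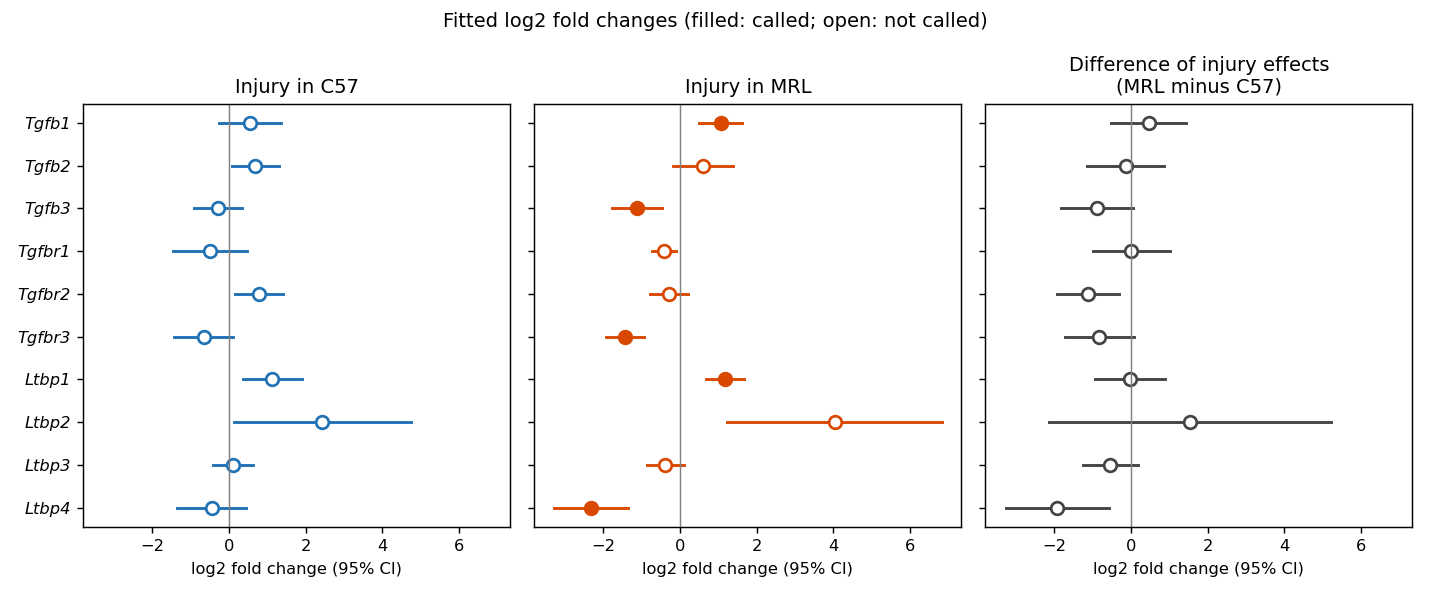
Fitted log2 fold changes with 95% confidence intervals for injury in C57 tendon, injury in MRL tendon and the difference between the strains (MRL minus C57). Filled points were called and open points were not. The 5 filled points are in the MRL panel, Ltbp2 has the widest intervals, and the intervals of Tgfbr2 and Ltbp4 in the difference panel lie below 0.

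Among the ligands, Tgfb1, the isoform most tied to scarring, rose in injured MRL tendon. Tgfb1 was measured at 29.4, 32.5, 29.2 and 45.8 CPM in uninjured MRL libraries 1 to 4 and at 47.3, 102, 76.9 and 59.7 CPM in the injured ones, in the order BI-270, 272, 274 and 275. The groups did not overlap, but the lowest injured library and uninjured replicate 4 were close. The log2 fold change was 1.07 ± 0.25 (SE; adjusted p = 0.0241). Leaving out BI-272, or uninjured replicate 1, 2 or 3, ended this call, with adjusted p up to 0.0759 and log2 fold changes over the 8 such fits from 0.85 to 1.25, and so did the joint fit of 16 libraries (adjusted p = 0.0626). In C57 tendon Tgfb1 read 56.0, 37.3, 51.0 and 15.6 CPM uninjured and 48.3, 78.2, 51.3 and 63.9 CPM injured, in the order BI-181, 183, 184 and 185. Both orders are kept throughout. These groups overlapped, and the log2 difference was 0.56 (95% interval -0.25 to 1.36, adjusted p = 0.496), or 0.29 without uninjured replicate 4.

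Tgfb3, the isoform linked to scar-poor fetal repair, moved the other way in MRL tendon. Uninjured MRL libraries held 276, 287, 278 and 226 CPM of Tgfb3 and injured ones 125, 152, 163 and 50.3 CPM. All 4 injured libraries lay below all 4 uninjured ones, and BI-275 was lowest. The log2 fold change was -1.12 ± 0.30 (adjusted p = 0.0386). With 1 library left out at a time, Tgfb3 was called in 1 of 8 fits (that without BI-274), and it was not called without the filter on low counts (adjusted p = 0.0606). In the other 7 fits the adjusted p reached up to 0.0922, or, without BI-275, the log2 fold change of -0.86 missed the fold threshold at an adjusted p of 0.00759. In C57 tendon Tgfb3 read 159, 192, 196 and 83.2 CPM uninjured and 123, 112, 122 and 174 CPM injured, which overlapped (log2 difference -0.29, 95% interval -0.91 to 0.34, adjusted p = 0.673). The difference was -0.49 without uninjured replicate 4.

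Tgfb2, which like the other isoforms signals through the type II receptor but depends most on the co-receptor encoded by Tgfbr3, did not pass the test in either strain. C57 libraries held 55.3, 52.3, 45.1 and 23.8 CPM uninjured and 67.8, 60.5, 93.6 and 70.5 CPM injured, without overlap. Its log2 difference was 0.69 in C57 (95% interval 0.08 to 1.296, adjusted p = 0.275), and 0.49 without uninjured replicate 4. In MRL tendon Tgfb2 read 103, 60.9, 70.1 and 29.1 CPM uninjured and 129, 77.1, 67.2 and 124 CPM injured, where the groups overlapped (log2 difference 0.60, 95% interval -0.17 to 1.38, adjusted p = 0.290, or 0.36 without uninjured replicate 4).

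Within a library, Tgfb3 made up less of the ligand total after injury. Expressed as a share of the 3 ligands in CPM per kilobase, Tgfb3 made up 77.5% to 83.3% in uninjured MRL libraries and 30.9% to 64.2% in injured ones. In C57 tendon the Tgfb3 share was 69.5% to 77.5% uninjured and 56.0% to 67.4% injured. The groups did not overlap in either strain. The ratio of Tgfb1 to Tgfb3 on that scale was 0.0703 to 0.136 in uninjured and 0.254 to 0.797 in injured MRL libraries, and 0.126 to 0.236 and 0.247 to 0.470 in C57. Such ratios do not depend on how libraries are scaled, and C57 uninjured replicate 4, whose levels were low throughout, had a Tgfb3 share within the range of replicates 1 to 3. They were chosen after the levels had been seen, and no test was run on them.

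**Figure D3:**
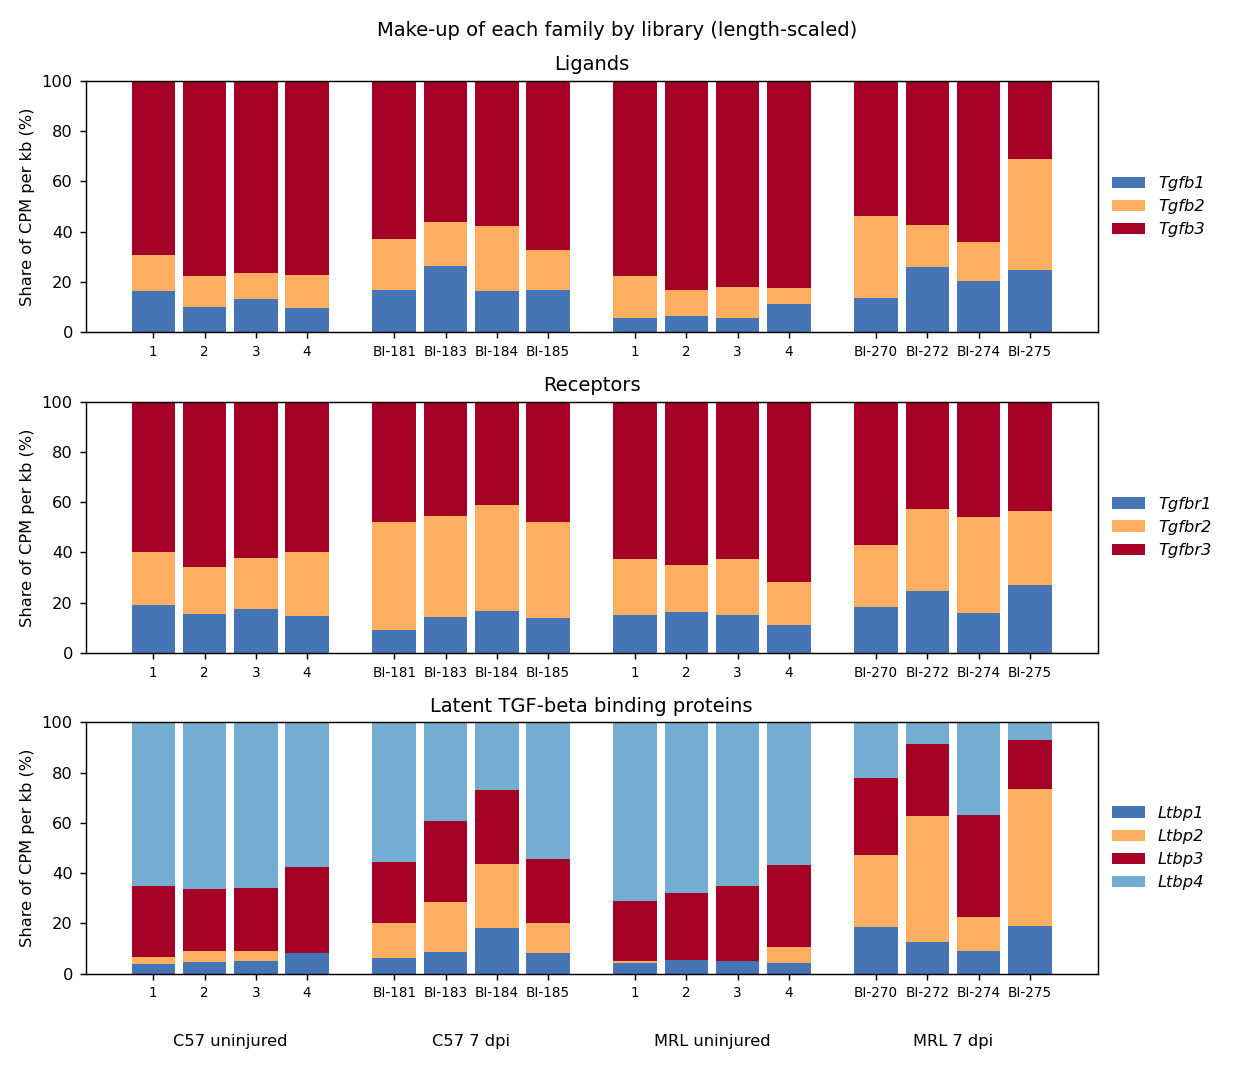
Share of each gene within its family in every library, as a percentage of summed CPM per kilobase for ligands, receptors and latent binding proteins. Bars are libraries, numbered for uninjured and named for 7 dpi tendon. In both strains the shares of Tgfb3, Tgfbr3 and Ltbp4 are smaller, and those of Tgfbr2 and Ltbp2 larger, in the 4 injured libraries than in the 4 uninjured ones.

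Among the receptors, Tgfbr3 (betaglycan, the co-receptor that presents ligand to the type II receptor) fell in MRL tendon. Uninjured MRL libraries held 294, 300.2, 311 and 441 CPM of Tgfbr3 and injured ones 156, 109, 149 and 84.5 CPM. The lowest uninjured library was well above the highest injured one. The log2 fold change was -1.43 ± 0.22 (adjusted p = 0.00448), and leaving out any 1 library kept the call (-1.57 to -1.25). In C57 tendon Tgfbr3 read 306, 359, 328 and 105 CPM uninjured and 138, 185, 193 and 201 CPM injured. Uninjured replicate 4 lay below all 4 injured libraries and the other 3 above them, so the groups overlapped and the log2 difference was -0.66 (95% interval -1.42 to 0.11, adjusted p = 0.391). Without that library it was -0.92 with an adjusted p of 0.0121, past the p threshold but not the fold threshold. So was the limma voom value on all 8 libraries, at -0.84 (adjusted p = 0.00729).

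Tgfbr2 encodes the type II receptor that binds ligand first. C57 libraries held 137, 128, 134 and 56.6 CPM of Tgfbr2 uninjured and 156, 206, 250.2 and 199 CPM injured. All 4 injured C57 libraries exceeded all 4 uninjured ones. The log2 difference was 0.79 (95% interval 0.16 to 1.42, adjusted p = 0.234), and 0.57 with an adjusted p of 0.0795 without uninjured replicate 4. Leaving out BI-181 as well gave 0.72 and 0.0120, still under the fold threshold. On all 8 libraries limma voom gave 0.61 (adjusted p = 0.0222), also under the fold threshold. In MRL tendon Tgfbr2 read 131, 109, 139 and 129 CPM uninjured and 84.9, 105, 156 and 72.4 CPM injured, which overlapped (log2 difference -0.27, 95% interval -0.77 to 0.22, adjusted p = 0.460). As a share of the 3 receptors in CPM per kilobase, Tgfbr2 made up 18.8% to 25.6% in uninjured and 38.0% to 43.2% in injured C57 libraries, and 16.8% to 22.3% and 24.8% to 38.4% in MRL, without overlap in either strain and with no test run. The Tgfbr3 share was 59.7% to 65.8% in uninjured and 40.9% to 48.0% in injured C57 libraries. In MRL the Tgfbr3 share was 62.4% to 71.9% and 42.6% to 57.1%, again without overlap and with no test run.

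Tgfbr1, the type I receptor kinase that phosphorylates the SMADs, did not pass the test in either strain. MRL libraries held 70.2, 74.6, 75.7 and 69.0 CPM uninjured and 49.8, 62.8, 51.2 and 52.2 CPM injured, without overlap (log2 difference -0.42, 95% interval -0.72 to -0.11, adjusted p = 0.0792). C57 libraries held 96.8, 83.6, 91.7 and 25.9 CPM uninjured and 25.7, 58.0, 77.9 and 58.6 CPM injured, where the 2 lowest values were uninjured replicate 4 and BI-181. The C57 log2 difference was -0.49 (95% interval -1.45 to 0.48, adjusted p = 0.635), but -0.76 without uninjured replicate 4 (adjusted p = 0.177), -0.22 without BI-181 (adjusted p = 0.877) and -0.48 without both. The ratio of Tgfbr2 to Tgfbr1 in CPM per kilobase was 1.13 to 1.74 in uninjured and 2.56 to 4.84 in injured C57 libraries, without overlap, while in MRL it was 1.16 to 1.49 and 1.11 to 2.44, with overlap.

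The latent binding proteins held the most variable genes of the family. Ltbp1 and Ltbp4 bind latent TGF-beta and store it in the matrix, Ltbp3 also binds it, and Ltbp2 is a microfibril protein that does not. Over all 16 libraries the SD of log2 CPM was 3.20 for Ltbp2 and 1.23 for Ltbp4, against 0.37 for Ltbp3 and 0.55 to 0.72 for the other 7 genes.

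Ltbp4 had the steepest fall of the family in MRL tendon. Uninjured MRL libraries held 504, 382, 430.5 and 343 CPM of Ltbp4 and injured ones 90.5, 46.3, 162 and 31.3 CPM. The groups were far apart, with BI-274 the highest of the injured libraries. The log2 fold change was -2.33 ± 0.44 (adjusted p = 0.00922), and the call was kept whichever library was left out (-2.88 to -2.05), but not without the filter on low counts (adjusted p = 0.0531). In C57 tendon Ltbp4 read 417, 432, 464 and 158 CPM uninjured and 294, 211, 162 and 434 CPM injured. BI-185 stayed within the range of uninjured replicates 1 to 3, and the groups overlapped (log2 difference -0.45, 95% interval -1.35 to 0.45, adjusted p = 0.635). The difference was -0.70 without uninjured replicate 4.

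Ltbp1 rose in MRL tendon, from 50.6, 49.7, 54.7 and 43.7 CPM uninjured to 127, 115, 66.5 and 139 CPM injured. No injured library reached down to the uninjured range. Its log2 fold change was 1.18 ± 0.22 (adjusted p = 0.00913), and Ltbp1 was called in 8 of 8 fits without 1 library (1.05 to 1.36), whereas limma voom put it at 0.98, under the fold threshold. In C57 tendon Ltbp1 read 40.7, 49.7, 56.7 and 37.3 CPM uninjured and 53.1, 76.2, 181 and 111 CPM injured. The groups overlapped through BI-181, the library with muscle markers, and the log2 difference was 1.14 (95% interval 0.36 to 1.92, adjusted p = 0.174). By limma voom it was 0.94 (adjusted p = 0.0419), under the fold threshold. Without BI-181 and uninjured replicate 4, a choice made after the data were seen, Ltbp1 was called in C57 as well (1.33, adjusted p = 0.0288), where 5.97% of genes were called.

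Ltbp2 had the largest fitted difference and the least certain one. In MRL tendon it read 5.04, 1.59, 0.477 and 46.8 CPM uninjured and 148, 349, 74.1 and 303 CPM injured. The groups did not overlap, but uninjured replicate 4 stood far above the other 3 uninjured libraries. The log2 difference was 4.04 ± 1.24 (adjusted p = 0.0696). DESeq2 and limma voom called it, and without replicate 4 edgeR called Ltbp2 at 6.54 (adjusted p = 0.00536), where 6.11% of genes were called. In C57 tendon Ltbp2 read 24.0, 35.7, 37.2 and 0.128 CPM uninjured and 93.6, 135, 193 and 117 CPM injured. The value in uninjured replicate 4 rests on 2 counts. The groups did not overlap, with a log2 difference of 2.44 ± 1.01 (adjusted p = 0.303), and without replicate 4 Ltbp2 was called at 2.02 ± 0.27 (adjusted p = 0.00502), where 5.01% of genes were called. An antisense transcript, D030025P21Rik, shares 764 exon bases (9.34%) with Ltbp2 and had at most 85 counts in a library.

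Ltbp3 was the steadiest gene and did not pass the test in either strain. It ranged from 132 to 254 CPM in uninjured and 179 to 284 CPM in injured C57 tendon, and from 209 to 279 CPM and 119 to 253 CPM in MRL. Its log2 difference was 0.11 in C57 (95% interval -0.42 to 0.64, adjusted p = 0.877) and -0.38 in MRL (95% interval -0.86 to 0.11, adjusted p = 0.291).

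The make-up of the LTBP family therefore differed between injured and uninjured libraries. Ltbp4 made up 56.7% to 71.0% of summed LTBP level in CPM per kilobase in uninjured MRL libraries and 7.13% to 36.7% in injured ones, and 57.5% to 66.4% and 27.0% to 55.7% in C57. Ltbp2 made up 0.0569% to 6.12% in uninjured and 13.3% to 54.4% in injured MRL libraries, and 0.0368% to 4.33% and 11.6% to 25.5% in C57. None of these ranges overlapped between injured and uninjured libraries of a strain. No test was run on these shares.

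Whether the strains differed before injury was tested next. No gene of the family was called by edgeR, which called 0% of the 14055 genes tested. By DESeq2 (0.65% of all genes) and by limma voom (0.213%) 0 of the 10 were called as well, and at an unadjusted p under 0.05 there was 1, Tgfb3, against 7.87% of all genes. Tgfb3 was also the 1 gene whose ranges did not overlap (5.04% of all genes; 5 of the 10 against 24.7% without both libraries numbered 4), at 226 to 287 CPM in MRL and 83.2 to 196 CPM in C57, with a log2 difference of 0.74 ± 0.25 (adjusted p = 0.621). Without both libraries numbered 4 the difference in Tgfb3 was 0.61 (adjusted p = 0.0107), under the fold threshold. With those 2 libraries left out, Ltbp2 was called lower in MRL, at 2.37 ± 2.38 against 32.3 ± 7.20 CPM (SD, n = 3), a log2 fold change of -3.78 (adjusted p = 0.00782), where 3.48% of genes were called. With them Ltbp2 was at -0.86 ± 1.53 (adjusted p = 0.903). Tgfb1 had a difference of -0.24, and of -0.68 (adjusted p = 0.0796) without both libraries.

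Injured MRL tendon was compared directly with injured C57 tendon. No gene of the family was called by edgeR, against 3.43% of 14626 genes, 3 of the 10 had an unadjusted p under 0.05 (21.2% of all genes), DESeq2 called 1 and limma voom 0 (4.98%). Ltbp4 was the gene whose ranges did not overlap (15.8% of all genes), at 31.3 to 162 CPM in MRL and 162 to 434 CPM in C57. The highest MRL library, BI-274, almost touched the lowest C57 library, BI-184. Its log2 difference was -1.77 ± 0.51 (adjusted p = 0.0847). DESeq2 called Ltbp4 (adjusted p = 0.00744), where 8.24% of genes were called. Tgfbr2 was lower in MRL by a log2 difference of -0.98 ± 0.26 (adjusted p = 0.0622), with 72.4 to 156 CPM against 156 to 250.2 CPM, ranges that overlapped at BI-274 and BI-181. For Tgfbr2 DESeq2 gave -0.98 (adjusted p = 0.00924) and limma voom -0.91 (adjusted p = 0.0255), both under the fold threshold. With 1 library left out at a time, Ltbp4 and Tgfbr2 were each called in 1 of 8 fits, that without BI-274, where 3.19% of genes were called (Ltbp4 at -2.29 and Tgfbr2 at -1.20, adjusted p = 0.0337 and 0.0284). In the other 7 fits neither was called, with adjusted p up to 0.199 for Ltbp4 and 0.160 for Tgfbr2. Tgfbr3 had a difference of -0.55 ± 0.22 (adjusted p = 0.195).

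The difference between the strains in their response to injury was tested as an interaction over all 16 libraries. None of the 10 genes was called by edgeR, DESeq2 or limma voom, against 0%, 1.37% and 0% of all genes, with 15947 tested by edgeR. At an unadjusted p under 0.05 there were 2 of the 10, Ltbp4 and Tgfbr2, against 12.2% of all genes. The log2 fold change after injury was lower in MRL than in C57 by a difference of -1.92 ± 0.63 for Ltbp4 (adjusted p = 0.339) and -1.11 ± 0.38 for Tgfbr2 (adjusted p = 0.344). For Tgfb1, called in MRL and not in C57, the difference was 0.46 (95% interval -0.51 to 1.44, adjusted p = 0.740), and for Ltbp1 it was -0.02 (95% interval -0.93 to 0.89, adjusted p = 0.996). It was -0.88 for Tgfb3 (95% interval -1.81 to 0.05, adjusted p = 0.436) and -0.82 for Tgfbr3 (95% interval -1.72 to 0.08, adjusted p = 0.455), both also called in MRL alone. Without both uninjured libraries numbered 4, the difference was 0.90 for Tgfb1 (adjusted p = 0.385) and -0.40 for Tgfbr3 (adjusted p = 0.646), and again none of the 10 genes was called. For these 5 genes, a call in MRL and not in C57 was therefore not shown to be a difference between the strains.

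Markers of other cells moved with the same groups. The summed macrophage markers (12 genes) took 0.489% to 0.967% of counts in injured and 0.106% to 0.201% in uninjured C57 tendon, and 0.354% to 0.678% and 0.109% to 0.183% in MRL. Of these 12 markers, 5 rose in C57 (1.07% of all genes were called in either direction) and 6 in MRL (5.25% of all genes rose), 4 were lower in injured MRL than in injured C57 (1.88% of all genes were lower), and none was at 0 throughout a group. The 8 endothelium markers took 0.0132% to 0.0239% of counts in injured C57 and 0.000548% to 0.00362% in injured MRL tendon, and 3 of the 8 were lower in MRL, against the same 1.88%. In uninjured tendon they took 0.00142% to 0.0121% in C57 and 0.00174% to 0.00911% in MRL, and none was at 0 throughout a group. Krt15 of the 12 epidermis markers was at 0 in all injured C57 libraries, Pvalb of the 12 muscle markers in all uninjured C57 libraries, and Myh1, Myh2, Myh4 and Tnnc2 in all injured MRL libraries. The part of these cells in the levels above was not tested.

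Further genes of the pathway were examined as 4 lists with 37 genes in all. In C57 tendon 35 were tested, 3 rose and 0 fell, and in MRL tendon 34 were tested, 2 rose and 2 fell, against 1.07% and 7.41% of all genes called. The median log2 difference of the 4 lists lay between -0.18 and 0.49 in C57 and between -0.37 and 0.37 in MRL, beside -0.05 and -0.03 over all genes.

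Of the 15 genes for ligand activation and matrix storage, 13 were tested in C57 and 12 in MRL. In C57 2 rose, where 1.07% of all genes were called in either direction, and in MRL 2 rose, against 5.25% of all genes. Nrros, which anchors latent TGF-beta on macrophages, rose in both, with ranges going from 6.77-30.6 to 76.4-95.3 CPM in C57 (log2 fold change 2.21, adjusted p = 0.0487) and from 9.01-19.4 to 19.4-87.5 CPM in MRL (1.71, adjusted p = 0.0338). The summed macrophage markers were higher in the same injured libraries, and their part was not tested. Fbn1, the microfibril protein to which LTBPs attach, rose in MRL from 80.9-121 to 196-309 CPM (1.39, adjusted p = 0.00250), and in C57 its larger difference of 1.83 did not pass (adjusted p = 0.0866). Mmp2, a gelatinase that can release matrix-bound ligand, rose in C57 from 125-156 to 247-735 CPM (1.76, adjusted p = 0.0484). Uninjured MRL tendon already held 413, 598, 573 and 144 CPM of Mmp2, the last in replicate 4, and the injury difference there was -0.39 (adjusted p = 0.538).

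In this list, 2 genes named after their values were seen were lower in injured MRL than in injured C57 tendon, 2 of 14 tested against 1.88% of all genes. Lrrc32, which displays latent TGF-beta on regulatory T cells, platelets and endothelium, read 29.4 to 57.4 CPM in C57 and 1.39 to 7.75 CPM in MRL (log2 fold change -3.21, adjusted p = 0.00792). Itgb3, the beta subunit of an integrin that binds latent TGF-beta, read 11.8 to 40.002 CPM and 1.26 to 5.55 CPM (-2.55, adjusted p = 0.0321). The summed endothelium markers were lower in the same MRL libraries, and their part was not tested.

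**Figure D4:**
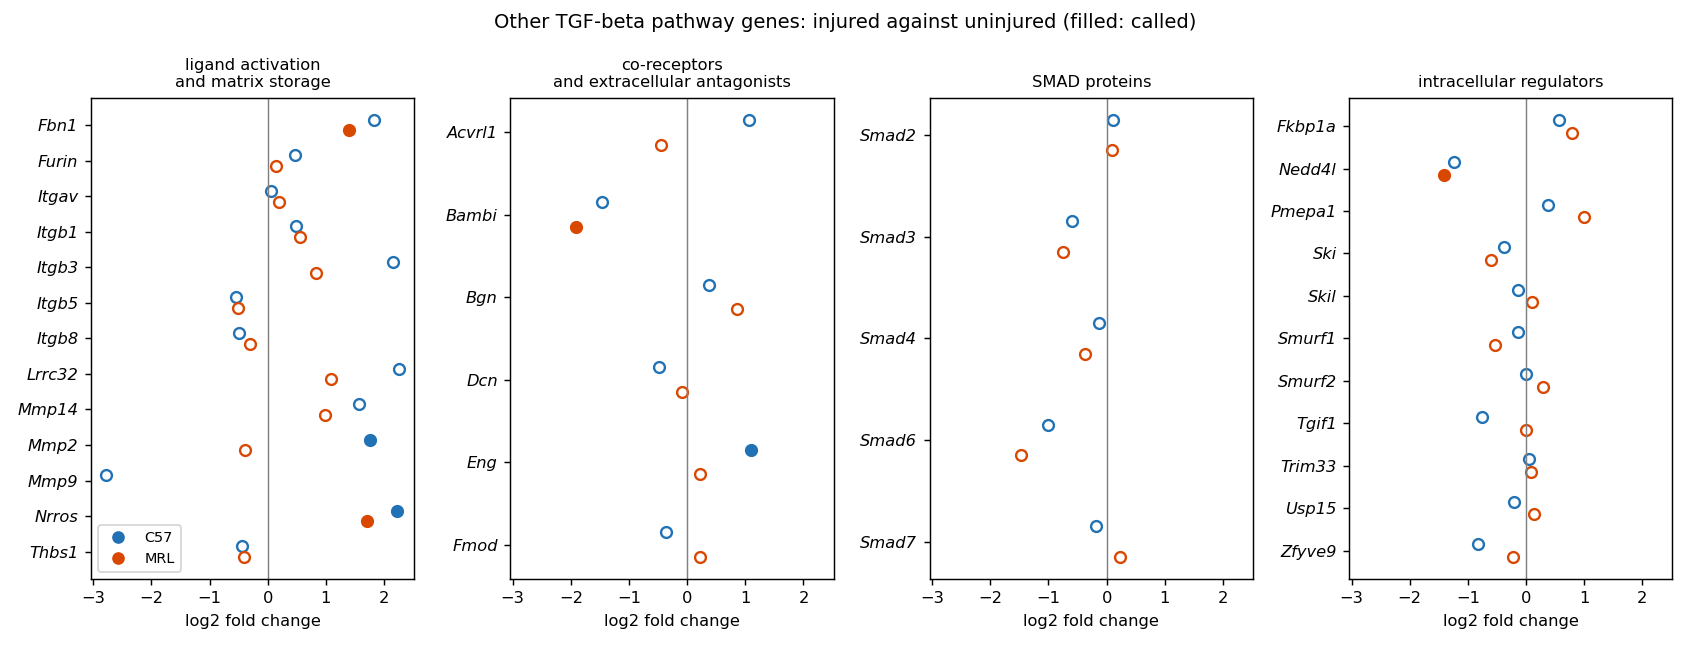
Log2 fold changes of the other pathway genes after injury in C57 and MRL tendon, by list. Filled points were called and open points were not. Nrros is filled in both strains, Mmp2 and Eng in C57, and Fbn1, Bambi and Nedd4l in MRL.

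Of the 6 co-receptors and extracellular antagonists, Eng (endoglin, an endothelial co-receptor) rose in C57 from 13.7-19.98 to 34.3-40.7 CPM (log2 fold change 1.09, adjusted p = 0.0380). The summed endothelium markers were higher in the same injured C57 libraries, and their part was not tested. In MRL Eng had a difference of 0.22 (adjusted p = 0.730). Bambi, a decoy receptor without kinase, fell in MRL from 188-245 to 43.8-80.6 CPM (-1.90, adjusted p = 0.00106), and in C57 its difference of -1.47 did not pass (adjusted p = 0.112).

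Of the 5 SMAD genes, 0 were called in either strain by edgeR. The 2 with the smallest p were Smad6, an inhibitory SMAD, with differences of -1.004 in C57 (adjusted p = 0.0774) and -1.48 in MRL (adjusted p = 0.0746), and Smad3, a signal transducer, with -0.59 (adjusted p = 0.475) and -0.75 (adjusted p = 0.0515). Of the 11 intracellular regulators, Nedd4l, a ubiquitin ligase for activated SMADs, fell in MRL from 62.4-92.2 to 9.02-44.3 CPM (log2 fold change -1.41, adjusted p = 0.0419), while its C57 difference was -1.23 (adjusted p = 0.174). Pmepa1, a target and inhibitor of the pathway, had 0.99 in MRL (adjusted p = 0.0167) and 0.37 in C57 (adjusted p = 0.710), and Fkbp1a, which binds the type I receptor, had 0.79 (adjusted p = 0.00921) and 0.57 (adjusted p = 0.346), all below the fold threshold.

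Genes with the most similar course over the 16 libraries were found by the root-mean-square (RMS) difference of centred log2 CPM among 15946 genes. For Tgfb1 these were Pmepa1 (0.22), Casp6 (0.32) and Elk3 (0.32). For Tgfb2 they were Ube2j1 (0.33), Maz (0.33) and Rpap2 (0.34), and for Tgfb3 Tns2 (0.25), Crtc3 (0.26) and Tmem200b (0.26). The nearest gene was Ppfibp1 for Tgfbr1 (0.24), Agtrap for Tgfbr2 (0.25), Vsir for Tgfbr3 (0.25), Tmsb4x for Ltbp1 (0.31), Phc2 for Ltbp3 (0.18) and Pik3ip1 for Ltbp4 (0.30). For Ltbp2 the nearest was Il2rg at 1.23. Distances were not scaled to the spread of each gene, and that of Ltbp2 was the widest (SD of log2 CPM 3.20). These distances are descriptions, and the genes share the libraries that stood apart.

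The 10 genes lie on 8 chromosomes of the GRCm38 assembly (GENCODE M21), with Tgfb1 at chr7:25687002-25705077 and Ltbp4 at chr7:27305136-27337692 on chromosome 7, and Tgfb3 at chr12:86056745-86079041 and Ltbp2 at chr12:84783212-84876532 on chromosome 12. Others lie at chr1:186622792-186705989 (Tgfb2), chr4:47353222-47414931 (Tgfbr1), chr9:116084293-116175360 (Tgfbr2), chr5:107106570-107289629 (Tgfbr3), chr17:75005568-75392512 (Ltbp1) and chr19:5740904-5758532 (Ltbp3). Exons of Ltbp2 and of the genes that follow overlap those of another annotated gene, so their counts could hold reads of a neighbour if they were shared in counting. These were Tgfb3 with Gm37804 and Gm48008 (163 and 257 bases), Tgfbr3 with Gm43422 (297 bases) and Tgfb2 with Gm29491 (124 bases).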

How the data were processed

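RNA was extracted from flexor tendon with TRIzol and sequenced as single-end reads of 100 nt. The labels name a TruSeq kit and the study's methods a SMARTer and Nextera protocol, and neither kit marks strand. The deposited values were raw counts per gene, made by the authors with Trimmomatic 0.36, STAR 2.5.2b (GRCm38.p5) and featureCounts of Subread 1.5.0p3, per the submitters' processing notes, which also name DESeq2 1.14.1. The annotation was not given in the sources used here. The study's methods give 4 animals per group and RNA from single tendons, while the labels do not name the animal of each library.

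Groups came from the labels. Each pair of groups was fitted on its 8 libraries, and the interaction on 16, with edgeR 4.0.16 (filterByExpr, TMM, robust quasi-likelihood) in R 4.3.3, with Benjamini-Hochberg adjustment over all genes tested. CPM used TMM-adjusted library sizes over 16 libraries, and log2 CPM a prior count of 2. DESeq2 1.42.0, limma 3.58.1 (voom with quality weights), other scalings, no filter, a joint fit and fits without libraries were alternatives, and scripts were tested on simulated data. The named genes were the 10 members, the called genes of 4 pathway lists or, where fewer than 2 were called, the 2 with the smallest p, and the nearest genes by pattern. The members and lists, including tenocyte, epidermis, skeletal muscle, macrophage and endothelium markers, were chosen with earlier results of these data known. At 12552424 to 23741648 counts per library, a count of 3 equals 0.126 to 0.239 CPM. One exon overlap of a member with a neighbouring gene is not reported here.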

Additional observations from a re-analysis of the deposited data

Results flagged for a closer look

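Across 40 sets of 4 libraries (10 genes in 4 groups), 6 held a library whose gap to its nearest neighbour took an unusually large share of the group's range in log2 CPM. Chance flags about 1 in 20 groups. In 5 of the 6 the library was C57 uninjured replicate 4, which was lowest for Tgfbr1 (gap over range 0.889, at 25.9 CPM), Tgfbr2 (0.928, at 56.6 CPM), Tgfbr3 (0.869, at 105 CPM), Ltbp2 (0.913, at 0.128 CPM) and Ltbp4 (0.902, at 158 CPM). The epidermis markers that took 7.68% of its counts were measured beside these levels, and their part was not tested. In the sixth, MRL uninjured replicate 4 was highest for Tgfbr3 (0.865, at 441 CPM).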

How the results depend on the processing

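In MRL injury 5 genes were called, against 7.41% of all genes. Without the filter on low counts 3 were called (Tgfb3 and Ltbp4 were lost), and with 1 library left out 3 to 5. The 3 calls with 1 library left out were seen without BI-272 or without uninjured replicate 1, 2 or 3. In C57 injury the count was 0 (1.07% of all genes), 1 by DESeq2 (5.51%) and 1 by limma voom (7.27%). With 1 library left out it was 0 to 1, the 1 without uninjured replicate 4 (5.01%). It was 2 without BI-181 and uninjured replicate 4 (5.97%), an alternative chosen after seeing the data. Ranges and orders of levels without the libraries numbered 4 were also chosen after seeing the data. Between uninjured strains the count was 0 (0% of all genes), and 1 (Ltbp2) without both libraries numbered 4 (3.48%). Between injured strains it was 0 (3.43%), 1 by DESeq2 (8.24%) and 1 by total counts (Tgfbr2). With 1 library left out it was 0 to 2, the 2 without BI-274 (3.19%). The interaction gave 0 in the alternatives run (0% of all genes in the main fit and 1.37% by DESeq2). No share over all genes is given without the filter, on total counts or for the remaining fits. Total counts moved the median log2 fold change of all genes from -0.05 to 0.08 in C57 injury, from -0.06 to -0.20 between injured strains and from -0.03 to -0.14 in the interaction. The cause of these shifts was not tested.

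Some log2 differences that had not passed changed sign, 43 values in all over the alternatives. Another 839 values were unchanged. These were log2 differences that kept their direction and side of the threshold, and mean levels that total counts moved by less than the SD of the group. Between uninjured strains limma voom gave -0.051 for Tgfbr2, -0.021 for Tgfbr3 and -0.028 for Ltbp4, and the fit without both libraries numbered 4 gave -0.088, -0.14 and -0.0067 for these genes, with -0.0053 for Ltbp3. Between injured strains Tgfb3 was 0.022 by limma voom and Ltbp1 -0.086 by total counts. In the interaction Tgfbr1 was -0.089 by total counts and Ltbp1 0.0060 without both libraries numbered 4. With 1 library left out, ranges that spanned 0 were -0.057 to 0.25 for Ltbp3 in C57 injury, -0.33 to 0.10 for Tgfbr1, -0.076 to 0.24 for Tgfbr2 and -0.085 to 0.29 for Ltbp4 between uninjured strains, -0.27 to 0.16 for Tgfb3, -0.28 to 0.15 for Tgfbr1 and -0.15 to 0.44 for Ltbp1 between injured strains, and -0.38 to 0.16 for Tgfb2, -0.22 to 0.29 for Tgfbr1 and -0.23 to 0.37 for Ltbp1 in the interaction.

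With the replicate number as a block, the uninjured strains gave 0 genes called and 0.080 for Tgfbr1, which was -0.06 without the block. The numbers do not pair the animals: deviations of same-numbered libraries correlated at -0.24 to -0.03. No paired analysis was possible for the other comparisons because the injured libraries carry no shared number.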
